A study of Mus musculus with 7 samples.

Results

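Genes of peripheral ganglion neurons and of the carotid body were followed in RNA from the carotid artery of 7 mouse samples. The list held 37 genes chosen by name, and each gene was read from the probe set annotated to that symbol alone with the highest mean signal over the 7 arrays. A probe set was found for 36 of the 37 genes, out of 18193 genes with such a probe set, and Kcnk9 was not measured here. All offspring were ApoE-/+, carrying 1 null allele of the gene for apolipoprotein E, in both groups. One cross gave 3 samples, from a normocholesterolemic wild-type mother and an ApoE-/- father. The reverse cross gave 4 samples, from a hypercholesterolemic ApoE-/- mother and a wild-type father. The design addressed how prone such offspring are to atherosclerosis. Both parents differ between the crosses, so mother and father cannot be told apart, and the labels give no age, sex, strain, litter or batch and do not say how many animals made a sample. Samples are named wild-type mother 1 to 3 and ApoE-null mother 1 to 4 in accession order, and the numbers pair nothing.

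The carotid artery divides beside the superior cervical ganglion, a sympathetic ganglion, and beside the carotid body, a small organ that senses oxygen in the blood. Sympathetic neurons make noradrenaline from tyrosine by the enzymes Th, Ddc and Dbh in turn, load it into vesicles and take it back up through the transporter Slc6a2. The glomus cells of the carotid body also make catecholamines and store them in dense-core granules rich in chromogranins and secretogranins. The cell bodies of these neurons lie outside the artery wall, while their axons run in its outer layer. In a dissected sample, fewer cells of a type and less RNA per cell cannot be told apart.

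The values are MAS5 signals on a linear scale, scaled by the authors to the same trimmed mean on every array. Background was taken per array as the highest signal of 27 probe sets for bacterial transcripts, which was 10 to 22. The smooth muscle genes Myh11 and Acta2 had signals of at least 4450 and 9492 on every array, so smooth muscle was present in all samples. The array of wild-type mother 2 stood apart in other respects. Its Xist signal was 41.2 where the other 6 arrays had 5174.1 to 5930.9, its 3 prime to 5 prime Gapdh ratio of 7.80 was the highest (5.03 to 6.56 on the others), and its summed skeletal muscle signal was 2657 against 199.2 to 403.2.

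The listed genes differed far more between arrays than between crosses. For 33 of the 36 genes the highest signal was on wild-type mother 1. Past the filter on low signals, that array was highest for 31 of 34 listed genes and for 13.7% of all 12713 genes. Elavl3, Elavl4, Tubb3 and Chrna3 passed the filter only with that array included, so the filter favoured it as their highest. Over the 36 genes, ApoE-null mother 3 came second for 25 and wild-type mother 2 for 6. The lowest array was ApoE-null mother 4 for 16 genes, wild-type mother 3 for 13 and ApoE-null mother 1 for 6. Summed over the 36 genes, the signal was 22144, 6404 and 3064 on wild-type mother 1, 2 and 3, and 3771, 6599, 9161 and 3735 on ApoE-null mother 1, 2, 3 and 4. High and low arrays thus occurred in both crosses, and the groups overlapped.

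**Figure D1:**
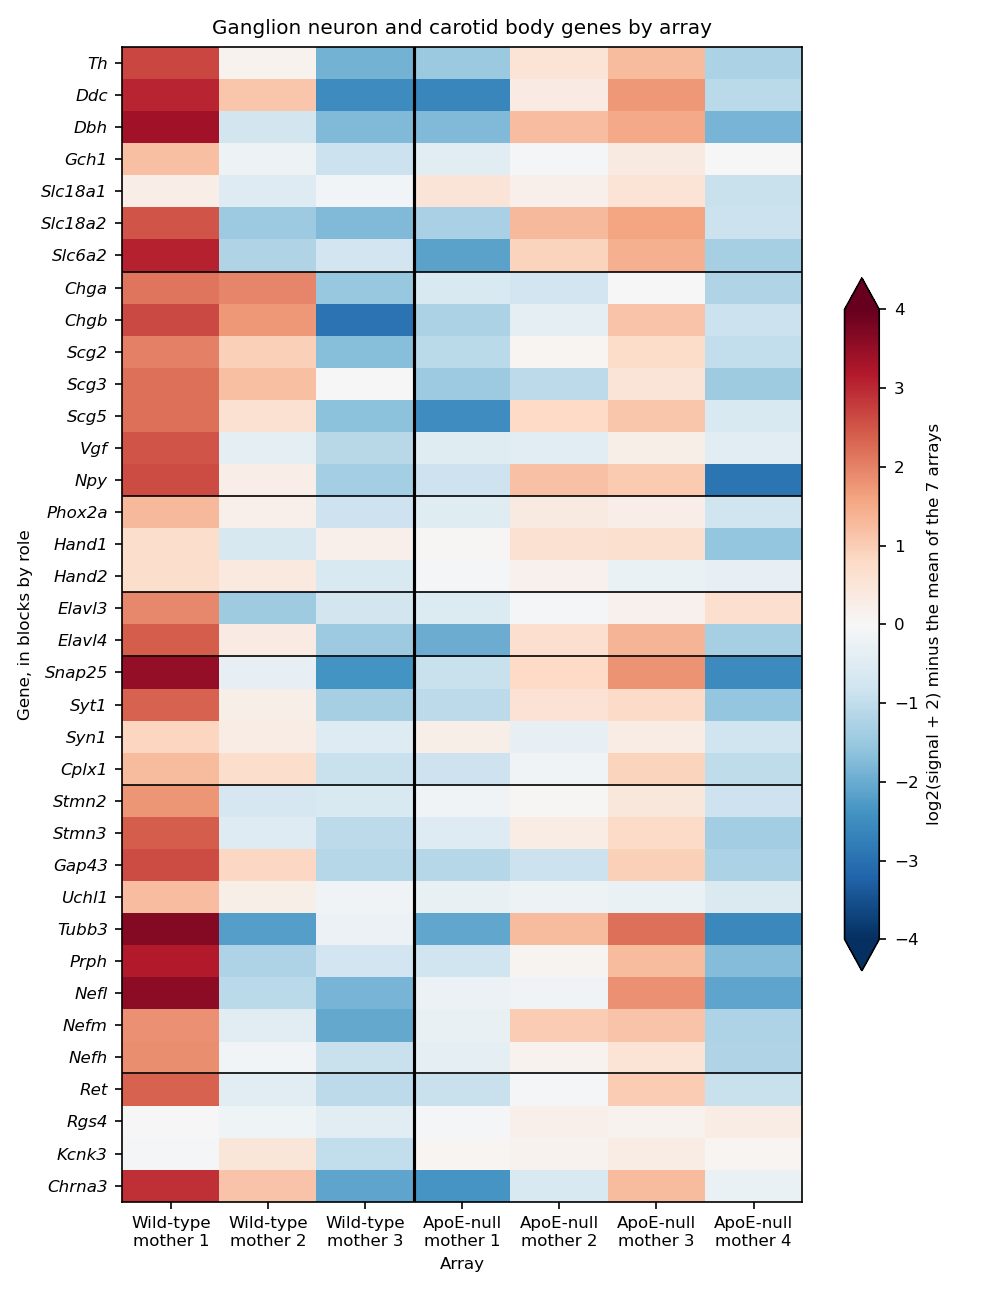
Each row is 1 of the 36 genes with a probe set and each column 1 array, and the colour gives log2(signal + 2) minus that gene's mean over the 7 arrays, with lines between blocks of genes by role and between the crosses. Wild-type mother 1 is the highest array for 33 genes, and ApoE-null mother 3 is the second highest for 25.

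The size of the excess on wild-type mother 1 varied with the array it was set against. Over the 35 genes above background on ApoE-null mother 3, the median ratio of wild-type mother 1 to that array was 2.55, with a range from 0.782 for Kcnk3 to 4.61 for Chga. The median ratio was 3.46 against wild-type mother 2 (29 genes) and 3.52 against ApoE-null mother 2 (34 genes). It was 7.59 against ApoE-null mother 1 (27 genes), 9.92 against ApoE-null mother 4 (29 genes) and 11 against wild-type mother 3 (29 genes). Over all genes past the filter and above background, the same medians lay between 0.977 and 1.0. With 1 array per sample these ratios carry no replicate error.

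Promoter sequence was available for 24 of the 37 listed genes, and 5 promoters are shown because they hold the same motif. Their genes were highest on wild-type mother 1, as were 33 of the 36 genes with a probe set, and a link between motif and array was not tested. The motif is the palindromic cAMP response element TGACGTCA, the site of factors of the CREB family, searched in windows from 250 bases before to 50 bases after the RefSeq start on GRCm38.p6. It was present in 1.79% of all 32851 windows. The listed genes had 29 windows, of which 5 held it, those of Th, Chgb, Scg2, Slc18a2 and Syn1. The core TGACG, on either strand and including the palindrome, was present in 16 of the 29 windows, for 14 of the 24 genes, and in 20.8% of all windows. Windows of a gene can overlap, so the same site can be counted more than once, as in Elavl4. A match in letters is a description and no evidence of binding here. Each sequence below is the sense strand, 5′ to 3′, of 110 bases, with the element in capitals.
Th, chr7:142899996-142900105, minus strand, element starting 45 bases before the start: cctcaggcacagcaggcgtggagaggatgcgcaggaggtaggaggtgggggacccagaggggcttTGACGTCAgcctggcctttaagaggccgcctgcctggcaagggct
Chgb, chr2:132781532-132781641, plus strand, element starting 72 bases before the start: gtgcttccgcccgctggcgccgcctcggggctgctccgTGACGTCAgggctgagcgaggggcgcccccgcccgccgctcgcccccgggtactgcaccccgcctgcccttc
Scg2, chr1:79440027-79440136, minus strand, element starting 68 bases before the start: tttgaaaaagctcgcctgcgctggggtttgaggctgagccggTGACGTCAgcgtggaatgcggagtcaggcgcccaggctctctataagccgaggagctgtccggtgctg
Slc18a2, chr19:59260772-59260881, plus strand, element starting 4 bases before the start: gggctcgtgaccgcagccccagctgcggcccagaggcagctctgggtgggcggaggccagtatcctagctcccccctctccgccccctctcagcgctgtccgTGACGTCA
Syn1, chrX:20920998-20921107, minus strand, element starting 159 bases before the start: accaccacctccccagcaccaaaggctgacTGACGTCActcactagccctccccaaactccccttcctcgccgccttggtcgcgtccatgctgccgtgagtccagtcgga

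Genes of catecholamine synthesis, storage and reuptake showed a wide spread between arrays. Th, the first and rate-limiting enzyme, had signals of 687.5, 118.4 and 27.1 on wild-type mother 1, 2 and 3, and of 36.6, 156.9, 255.8 and 43.4 on ApoE-null mother 1, 2, 3 and 4. Signals of Ddc, the decarboxylase that makes dopamine, were 2976.9, 772.0 and 60.7 in the wild-type mother group and 57.5, 452.6, 1207.3 and 168.9 with an ApoE-null mother. For both enzymes wild-type mother 3 and ApoE-null mother 1 were among the lowest arrays, and the crosses overlapped across the whole range. Dbh, which turns dopamine into noradrenaline, was at 576.6, 31.8 and 14.3 in the first cross and at 14.3, 128.1, 158.4 and 13.5 in the second. The noradrenaline transporter gene Slc6a2 was at 3828.0, 193.6 and 264.0, against 100.9, 829.8, 1212.1 and 178.0. Slc18a2, the vesicular transporter that fills storage vesicles, was at 140.2, 7.2 and 5.3, against 8.1, 58.7, 72.1 and 11.9. On wild-type mother 2 and 3 and on ApoE-null mother 1 it did not exceed background. Th, Dbh, Slc6a2 and Slc18a2 therefore shared the order wild-type mother 1, ApoE-null mother 3, ApoE-null mother 2, with the other 4 arrays lower. Gch1, which makes the cofactor of Th, varied less, at 215.3, 79.0 and 49.3, against 68.0, 88.6, 116.8 and 90.2. Its probe set, like those used for Dbh and Stmn3, has a suffix that marks possible cross-hybridisation. Slc18a1, the vesicular transporter of chromaffin cells, did not follow the others, with 20.4 to 58.5 over the 7 arrays and its highest value on ApoE-null mother 3.

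Granule proteins and neuropeptides had the same highest array, but the chromogranin and secretogranin genes Chga, Chgb, Scg2 and Scg3 had a different second one. Chga, the main chromogranin of dense-core granules, had signals of 248.2, 213.8 and 17.8 in the wild-type mother group, and 34.5, 30.8, 53.8 and 22.6 with an ApoE-null mother. Chgb, its relative, was at 1157.3, 623.5 and 22.2, against 76.5, 139.8, 407.7 and 100.4. Scg3, which binds chromogranin A to the granule membrane, was at 423.2, 208.2 and 88.1, against 31.6, 42.9, 130.5 and 32.6. In these genes and in Scg2, wild-type mother 2 was the second highest array and wild-type mother 1 the highest. Scg2, the precursor of secretoneurin, was at 230.8, 109.0 and 15.6, against 25.2, 58.2, 93.3 and 27.2. Npy, the peptide that sympathetic neurons release with noradrenaline, was at 581.7, 114.3 and 35.8, against 52.6, 212.8, 198 and 10.8. ApoE-null mother 2 and 3 came next after wild-type mother 1, as in Dbh apart from their order. Scg5, a chaperone of prohormone convertase, was at 112.9 on wild-type mother 1 and at 2.5 to 52.3 on the others, and the neuropeptide precursor Vgf was above background on wild-type mother 1 alone (31.7, against 0.7 to 4.9). The second highest array of Scg5 and Vgf was ApoE-null mother 3 (52.3 and 4.9), as in Th, with Vgf below background there.

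**Figure D2:**
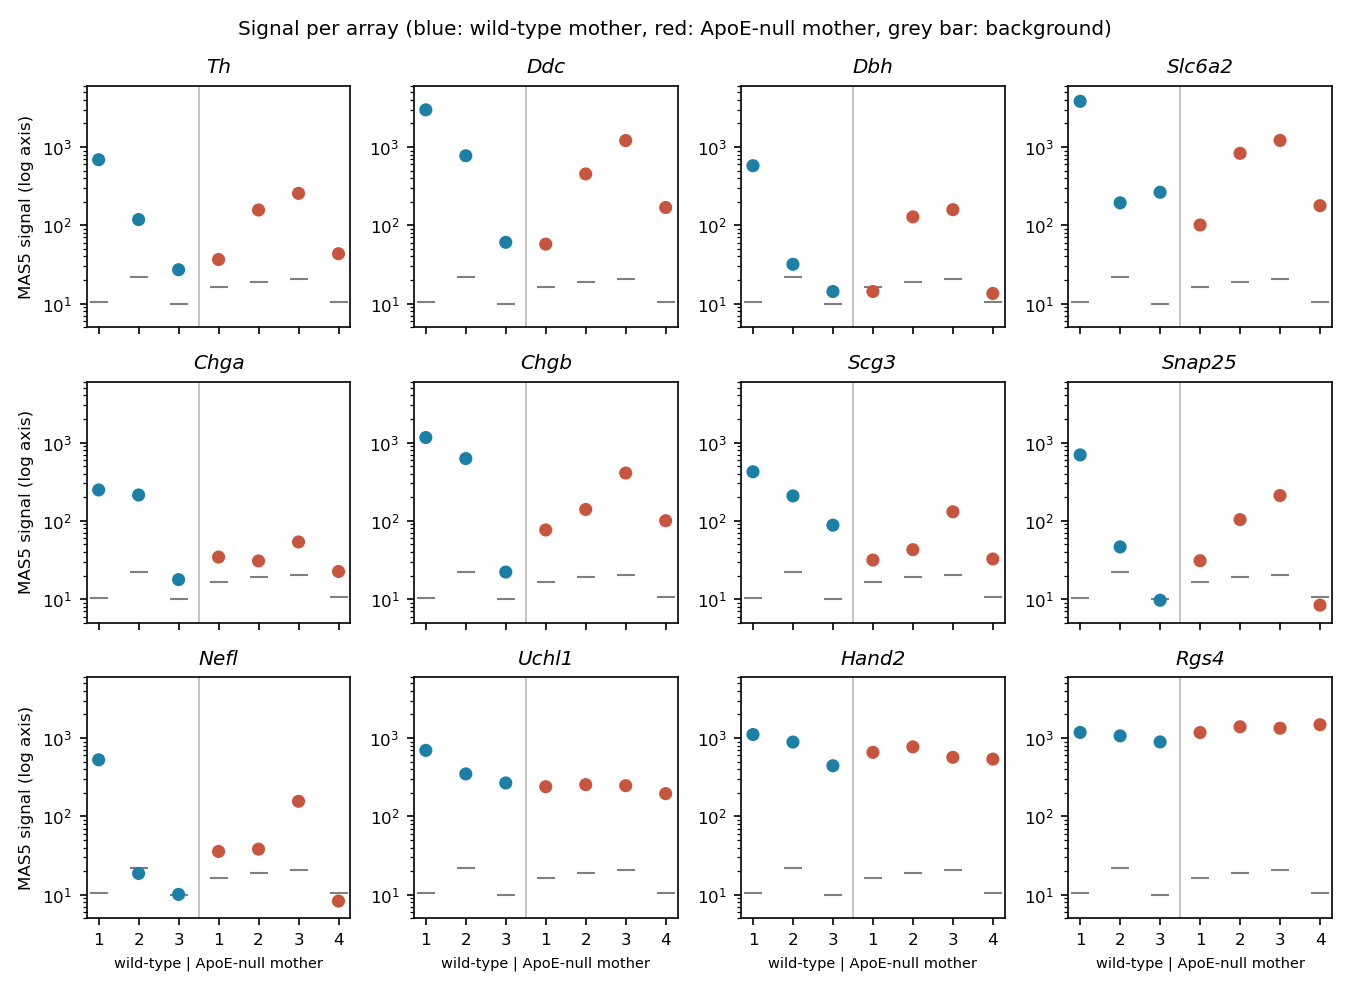
Points give the MAS5 signal of 12 genes on each array on a log axis, with wild-type mother 1 to 3 in blue and ApoE-null mother 1 to 4 in red, and grey bars mark the background of that array. Th ranges from 27.1 to 687.5 and Slc6a2 from 100.9 to 3828.0 with both crosses spread over the range, whereas Rgs4 stays between 891.9 and 1479.3.

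Transcription factors of the autonomic lineage varied less. Phox2a, which switches on the noradrenergic genes, was at 81.3, 36.8 and 17.3, against 22.1, 41.2, 38.9 and 17.5. Hand2, a basic helix-loop-helix factor of sympathetic and of mesenchymal cells, was at 1109.3, 889.0 and 443.1, against 657.0, 771.6, 567.5 and 538.8. Its ratio of highest to lowest array was 2.5, where that of Th was 25.4. Hand1 was at 9.8 to 54.9, with background on 2 arrays.

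Among genes of the neuron's cell body, axon and synapse, Snap25, Nefl, Tubb3 and Prph separated the arrays at least as widely as Th did. Their log2 ranges were 4.90 or more, against 4.57 for Th, while others such as Syn1 (1.66) and Stmn2 (2.60) varied less. Snap25, a SNARE of vesicle fusion, had signals of 694.7, 46.5 and 9.7 in the wild-type mother group, and 31.0, 103.7, 210.3 and 8.4 with an ApoE-null mother. Syt1, the calcium sensor of release, was at 940.9, 213.6 and 70.3, against 87.1, 269.7, 309.9 and 60.6. Nefl, the light neurofilament chain, was at 527.5, 18.7 and 10.1, against 35.7, 38.2, 156.0 and 8.3. These 3 genes were lowest on ApoE-null mother 4, and Snap25 and Nefl did not exceed background there. Prph, the filament protein of peripheral neurons, was at 788.2, 34.9 and 49.2, against 47.9, 93.2, 207.9 and 24.5. Tubb3, the neuronal beta-tubulin, was at 221.0 on wild-type mother 1, 77.9 on ApoE-null mother 3 and 40.1 on ApoE-null mother 2. On the other 4 arrays Tubb3 was at 0.9 to 12.7, which exceeded background on wild-type mother 3 only. Nefh, the heavy neurofilament chain, was at 116.7 on wild-type mother 1 and at 12.2 to 45.7 on the others, and Nefm, the medium chain, at 60.2 against 2.2 to 36.6. Stmn3, a regulator of microtubules, was at 1907.4, 247.1 and 171.5, against 251.4, 442.0, 602.5 and 134.3. The growth cone genes Stmn2 and Gap43 had their highest signals on wild-type mother 1 as well (745.8 and 341.6), with 121.3 to 299.5 and 21.6 to 107.1 on the other arrays. Among the 9 genes of this block, ApoE-null mother 2 and 3 were the 2 highest arrays of their cross in all 9. The RNA-binding proteins Elavl3 and Elavl4 were at 94.2 and 120.0 on wild-type mother 1, and did not exceed background on 2 and 3 of the other arrays. The remaining release genes Syn1 and Cplx1 reached 88.7 and 430.6 there, against 26.8 to 59.0 and 88.0 to 331.1.

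Uchl1, a ubiquitin hydrolase abundant in neurons and neuroendocrine cells, was the only listed gene whose groups did not overlap. Its signals were 696.6, 348.6 and 267.1 with a wild-type mother and 239.6, 254.4, 246.8 and 195.2 with an ApoE-null mother. The lowest value of the first cross exceeded the highest of the second by a small step, and wild-type mother 1 stood well above all others. Groups failed to overlap in this direction for 4.01% of the 27027 probe sets tested, so 1 gene among the 34 past the filter lay near that share.

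Receptors and channels divided into genes that followed the neuronal pattern and genes that did not. Ret, the receptor for ligands of the glial cell line-derived neurotrophic factor family, was at 424.7, 59.5 and 38.6, against 43.2, 77.3, 166.6 and 42.8. Chrna3, a subunit of the ganglionic nicotinic receptor, was at 132.5, 36.9 and 2.1, against 1.4, 9.5, 40.5 and 12.5. Both had the highest value on wild-type mother 1 and the second on ApoE-null mother 3. Kcnk3, an acid-sensitive potassium channel of glomus cells that arterial smooth muscle also uses, was at 129.4, 189.5 and 67.3, against 143.5, 149.1, 165.5 and 144.4. Rgs4, a brake on G protein signalling, was at 1179.7, 1066.8 and 891.9, against 1174.7, 1392.5, 1334.2 and 1479.3. Rgs4 had its highest array in ApoE-null mother 4, one of the lowest arrays for most other listed genes, and its full range was 0.73 on the log2 scale. That highest array held for the probe set used. A further Rgs4 probe set, above background on all 7 arrays, was highest on wild-type mother 1 (430.6, against 266.9 to 373.8).

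Between the crosses, no listed gene passed the test. Of the 34 genes with a mean signal above the filter of 23.6, 0 were called in either direction by limma, and over all 27027 probe sets 0.00370% were called higher and 0% lower with an ApoE-null mother. The 2 genes under the filter were Nefm (mean 22.9) and Vgf (6.69), and the nearest above it was Elavl3 (31.3). At an unadjusted p under 0.05 there were 3 of the 34 listed genes, against 1100 of 12713 genes. The mean signal of Scg3 was 240 ± 170 (SD, n = 3) in the cross with the wild-type mother and 59.4 ± 47.7 (SD, n = 4) in the reverse cross. Its log2 fold change was -1.97 ± 0.54 (standard error), with a 95% interval from -3.16 to -0.78 and an adjusted p of 0.474 in limma. Uchl1 was at 437 ± 228 (SD, n = 3) and 234 ± 26.6 (SD, n = 4), for a log2 fold change of -0.78 ± 0.27 (standard error) and an adjusted p of 0.546 in limma. Rgs4 lay the other way, at 1046 ± 145 (SD, n = 3) and 1345 ± 128 (SD, n = 4), for a log2 fold change of 0.37 ± 0.14 (standard error) and an adjusted p of 0.573 in limma.

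For Th and Slc6a2 the SD in the wild-type mother group exceeded the mean. Th was at 278 ± 358 (SD, n = 3) and 123 ± 104 (SD, n = 4), and its log2 fold change of -0.54 had an interval from -2.57 to 1.48 (adjusted p = 0.896 in limma). Slc6a2 was at 1429 ± 2078 (SD, n = 3) and 580 ± 533 (SD, n = 4), and its log2 fold change of -0.66 had an interval from -2.91 to 1.59 (adjusted p = 0.886 in limma). Intervals of this width hold large differences of either sign, so a difference between the crosses was not resolved with 7 arrays. Over the 36 genes, fitted values were negative for 30, with a median log2 fold change of -0.53 and a range of -1.97 to 0.41. Past the filter, 29 of 34 listed genes were negative, beside 51.2% negative and a median of -0.01 over the 12713 genes. The genes of a shared cell type are not independent of each other, and the list was chosen with earlier results known, so the count was not tested. The score of the list, the mean log2 deviation of the 36 genes from their mean over all arrays, was 2.08, -0.03 and -1.16 on wild-type mother 1, 2 and 3, and -0.89, 0.22, 0.85 and -1.07 on ApoE-null mother 1, 2, 3 and 4.

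The direction rested on wild-type mother 1. Without that array, 23 of the 30 genes still past the filter were positive and 7 negative, with a median log2 fold change of 0.30. Th then stood at 0.64, Dbh at 1.03, Slc6a2 at 0.70, Snap25 at 1.14 and Nefl at 1.32, all with the sign turned. Snap25 and Nefl did not exceed background on 2 of the 7 arrays each, which limits their values. Scg3, Chga, Uchl1, Gap43 and Cplx1 stayed negative, at -1.42, -0.87, -0.39, -0.42 and -0.18. None of the 30 passed in limma without wild-type mother 1. Without wild-type mother 3, Chga alone was called lower, with a log2 fold change of -2.70 (limma, adjusted p = 0.0309), and 0.00370% of all probe sets were called lower then. The granule genes Chga, Chgb, Scg2 and Scg3, with Hand2 and Uchl1, did not overlap between crosses in that setting, 6 of 35 genes beside 7.54% of probe sets in the same direction.

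The shares of all probe sets under the other settings give the background for these counts. Without wild-type mother 1, 0.0592% were called higher and 0.00740% lower, and groups did not overlap for 8.77% (lower) and 9.44% (higher), beside Uchl1 lower and Slc18a2 and Rgs4 higher among the listed genes. Without wild-type mother 3, 0.0111% were called higher, and 7.41% did not overlap in the higher direction. The same shares of groups without overlap, lower and then higher, were 9.98% and 8.77% without wild-type mother 2, and 6.72% and 7.04%, 5.61% and 5.27%, 5.24% and 5.35%, and 7.27% and 8.38% without ApoE-null mother 1, 2, 3 and 4, with 0% called. They were 3.24% and 3.77% with no filter (0.00222% called higher), 4.43% and 4.04% with the filter at the 60th percentile (0.00555%), 3.95% and 4.60% after quantile normalization (0.00740%), and 3.76% and 4.20% with the mean over all probe sets of a gene (0.00858%).

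**Figure D3:**
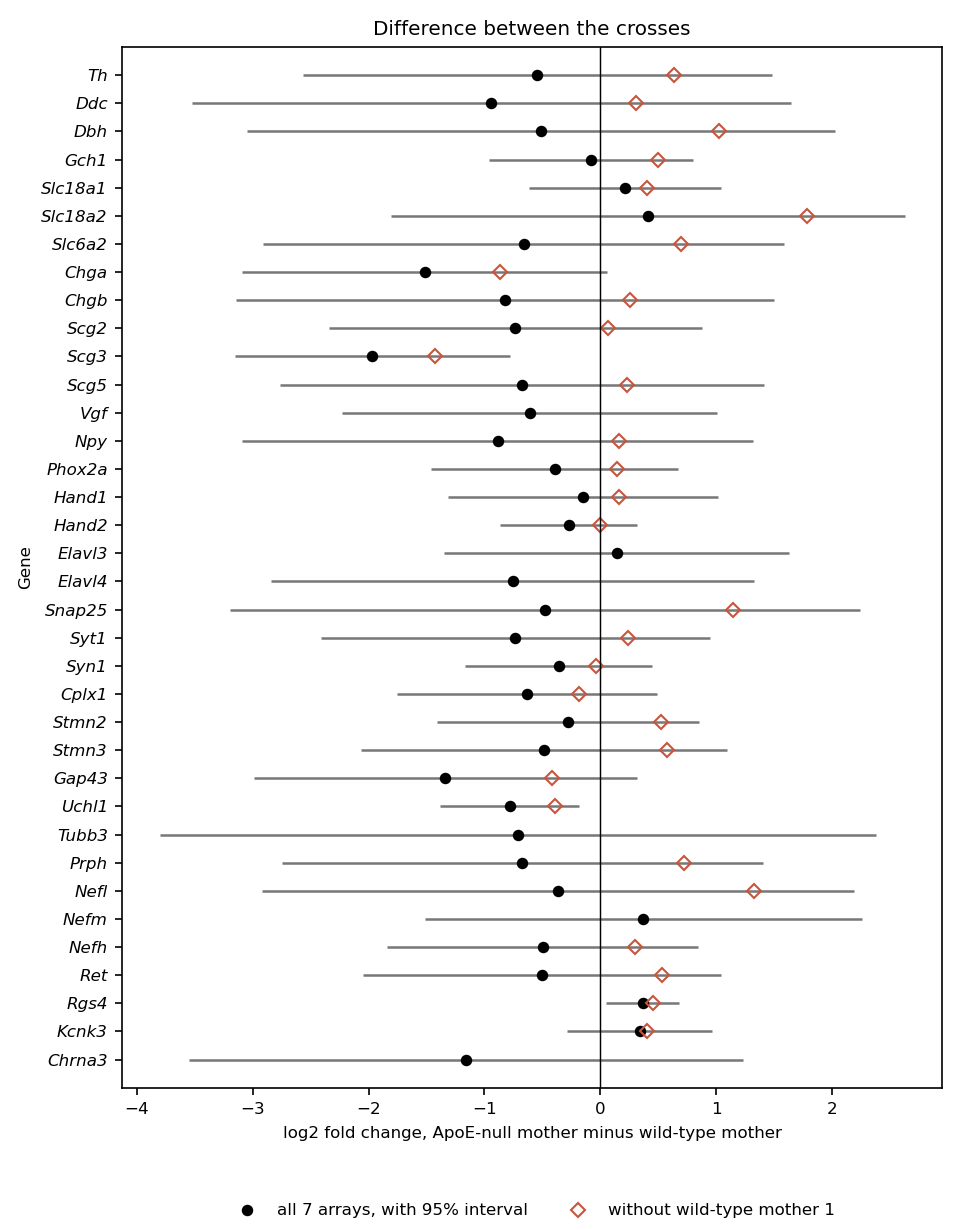
Filled points give the log2 fold change of each gene (negative where the ApoE-null mother group is lower) with its 95% interval from limma over all 7 arrays, and open diamonds give the value without wild-type mother 1 for the 30 genes past the filter then. Most filled points lie below 0 with wide intervals, and 23 of the 30 diamonds lie above 0.

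Wild-type mother 2 and ApoE-null mother 3, the arrays most often second after wild-type mother 1 (6 and 25 genes), differed in which genes were high. Granule genes were the higher on wild-type mother 2 in 4 of 7 cases, while 7 of 7 catecholamine genes and 8 of 9 axon and cytoskeleton genes were the lower there. The differences on the log2(signal + 2) scale, wild-type mother 2 minus ApoE-null mother 3, were 1.95 for Chga, 0.67 for Scg3, 0.65 for Hand2, 0.61 for Chgb, 0.49 for Uchl1, 0.22 for Scg2 and 0.19 for Kcnk3. They were -2.25 for Dbh, -2.63 for Slc6a2, -2.51 for Prph and -2.13 for Snap25. The median was -0.66 over the 36 genes, and of all 12713 genes 49.6% were higher on wild-type mother 2. Ddc was at 772.0 against 1207.3 (-0.64) and Th at 118.4 against 255.8 (-1.10), smaller gaps than that of Dbh. Dbh was at 31.8 on wild-type mother 2, near the background of 22 on that array, which limits its value. Tubb3, Slc18a2, Nefl, Elavl3, Nefm, Hand1 and Vgf did not exceed background on wild-type mother 2, so their differences are limited by that floor. These are 2 arrays with no replicate, from different crosses, and the pattern was noted after the values were seen. The part of the low Xist, the muscle signal and the 3 prime to 5 prime ratio of wild-type mother 2 in it was not tested.

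**Figure D4:**
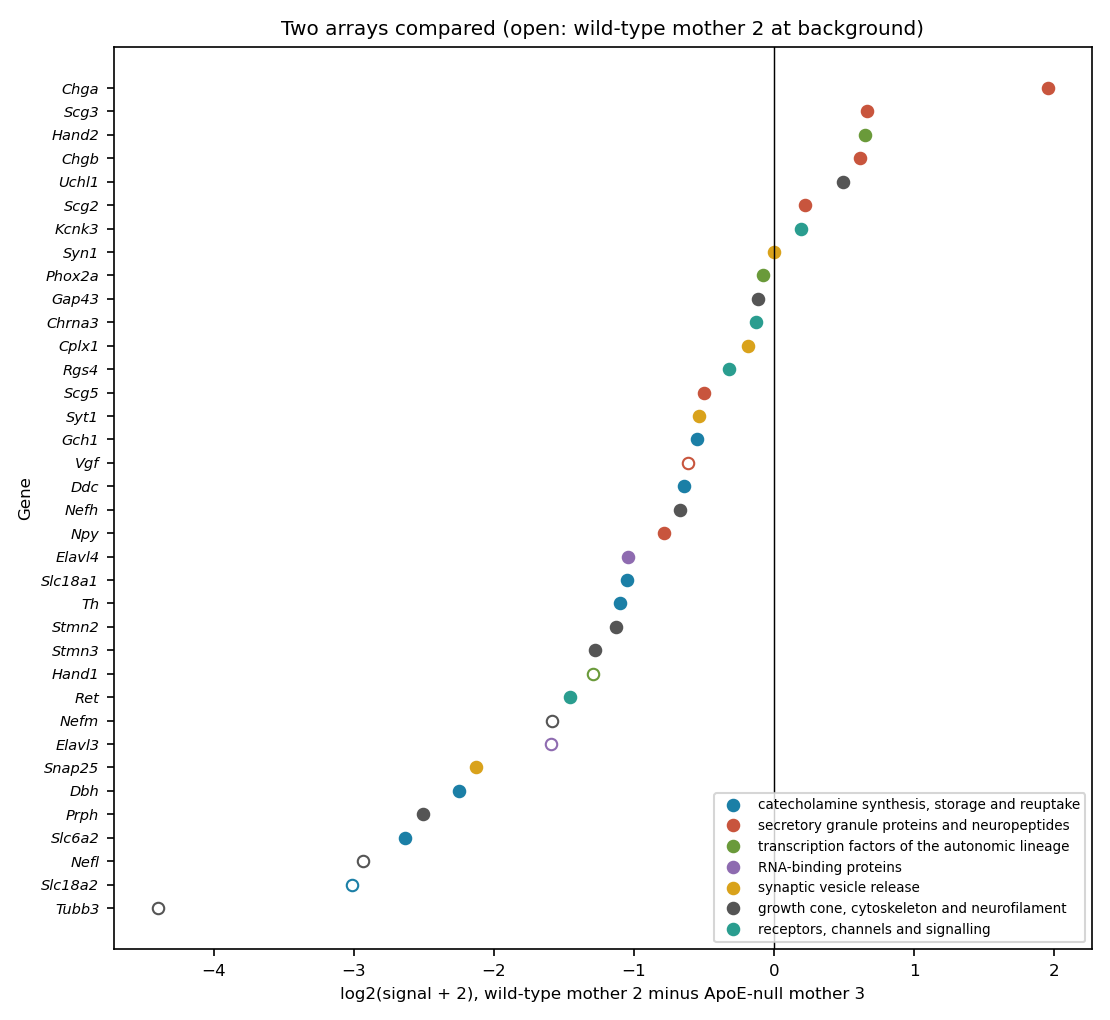
Points give, for each of the 36 genes, log2(signal + 2) on wild-type mother 2 minus that on ApoE-null mother 3, coloured by role, and open points mark genes at background on wild-type mother 2. Chga lies at 1.95 and Scg3 at 0.67 on the right, and Slc6a2 at -2.63 and Prph at -2.51 lie on the left.

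Other genes of these cells, from lists written for the comparison, gave 0 calls in either direction in limma. Of 21 pan-neuronal genes outside the list with a probe set, 17 were past the filter, and of these 13 were highest on wild-type mother 1. The vesicle GTPase gene Rab3c was at 313.2 there and at 6.4 to 56.6 on the other arrays, and the synaptotagmin gene Syt4 was at 475.3 against 21 to 138.1. Mapt, which encodes the microtubule protein tau, was at 154.7 against 6.2 to 45.5, and Crmp1, a growth cone protein gene, was at 86.7 against 4.4 to 39.9. Of 15 sympathetic and chromaffin genes past the filter, 9 were highest on wild-type mother 1. Chrna7, a nicotinic receptor subunit, was at 624.9 and 328.0 on wild-type mother 1 and 2, at 177.0 on ApoE-null mother 3 and at 29.8 to 67.3 elsewhere. Insm1, a transcription factor of neuroendocrine cells, was at 38.4 and 44.9 on wild-type mother 1 and 2 and at 0.9 to 11.8 on the others, with a mean under the filter. Chrna7 thus had the order of Chga, Chgb, Scg2 and Scg3, and Insm1 exceeded background on wild-type mother 1 and 2 only, whereas Eya1 (266.6 on wild-type mother 1, 90.1 on ApoE-null mother 3, 21.5 to 52.0 on the rest) had that of the noradrenergic genes. Gata3 had no such order, with 1.9 to 47.7.

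Genes tied to glomus cells and oxygen sensing did not share 1 order of arrays, and their sum was highest on wild-type mother 2 (17644). Olfr78, an olfactory receptor expressed in glomus cells, was at 522.9, 140.6 and 30.3 in the wild-type mother group and at 62.5, 109.5, 196.5 and 66.0 with an ApoE-null mother. Rgs5, a gene of pericytes and of glomus cells, was at 5501.9, 4727.4 and 1095.1, against 1533.2, 3285.3, 3887.9 and 2010.3. Ndufa4l2, a mitochondrial gene of low oxygen, was at 211.4, 261.7 and 100.6, against 63.4, 70.5, 61.1 and 84.3, without overlap (limma, adjusted p = 0.415). Gfra3, a co-receptor that pairs with Ret, was highest on wild-type mother 3 (255.5), with 167.5 on wild-type mother 1. Of the 13 genes of this list past the filter, 3 were highest on wild-type mother 1 and 10 were negative, beside 13.7% and 51.2% of all 12713 genes.

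Of 7 granule processing genes past the filter, 5 were highest on wild-type mother 1, beside 13.7% of all 12713 genes. The sum of the list was lowest there (8095) and highest on wild-type mother 2 (9321), and most of it was Cpe, a carboxypeptidase named after its values were seen (6831.9 on wild-type mother 1 and 7576.9 to 8873.6 on the others). Cadps, a priming factor of dense-core vesicles, was at 319.9 there, at 100.5 on ApoE-null mother 3 and at 63.2 on ApoE-null mother 2, and at 1.4 to 15.9 on the other 4 arrays. Resp18, Pcsk1n and Ptprn2, proteins of endocrine and neuronal granules, were at 147.6, 194.3 and 131.7 on wild-type mother 1, against highest values of 35.0, 54.9 and 43.8 on any other array. Resp18 and Ptprn2 were weak on the other arrays, so the filter on the mean of all 7 favoured wild-type mother 1 as their highest. Pcbd1, which recycles the cofactor of Th, was at 891.4 on wild-type mother 1 and at 168.0 to 298.6 on the others. Gchfr, Maob and Spr, from the same list of 7 enzymes past the filter, were not highest together on any array, and Gchfr was at 387.1 on wild-type mother 2 and 84.6 to 249.7 elsewhere. Maob, an enzyme that breaks down amines, did not overlap between the crosses (557.5 to 796.5, against 847.1 to 1111.9), with an adjusted p of 0.590 in limma. The median log2 fold change of these enzymes was 0.065.

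Markers of cholinergic and sensory neurons did not share 1 order of arrays. The cholinergic vesicle and choline transporter genes Slc18a3 and Slc5a7 had signals of at most 19.8 and 29.3. Vip, a peptide of cholinergic neurons, was highest on ApoE-null mother 1 (103.2), with 75.8 on wild-type mother 1, and Ache, the enzyme that breaks down acetylcholine, was at 98.1 on wild-type mother 1 against 10.8 to 26.5. Tac1, the precursor of substance P in sensory fibres, was also highest on ApoE-null mother 1 (252.5), with 118.2 on wild-type mother 1. Scn9a, a sodium channel of sensory and sympathetic neurons, was at 89.2 on wild-type mother 1 and at 3.3 to 32.6 on the others. The sensory sum of 830.7 to 1344 was mostly Ntrk2, a neurotrophin receptor named after its values were seen, at 751.1 to 1066.5. The sensory genes Scn10a and P2rx2 did not exceed background on any array, and P2rx3 and Trpv1 were at 7.5 to 31.3.

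Markers of other cells in a dissected carotid were read on the same arrays, and 0 of their genes past the filter were called in limma. Schwann and satellite glia genes were highest in sum on wild-type mother 3 (10692), followed by wild-type mother 1 (8110) and ApoE-null mother 1 (7411), so the glial sum did not follow the neuronal one. Mbp, a myelin protein gene, was at 2183.7 on wild-type mother 3 and 1000.2 on wild-type mother 1, and Cdh19 and Sox10, genes of Schwann cells, were highest on wild-type mother 3 too (1170.7 and 265.9). Fabp7, a gene of satellite glia around ganglion neurons, had the neuronal order instead, at 944.4, 164.9 and 179.4, against 88.2, 200.4, 429.1 and 33.7. The 7 glial genes past the filter were all negative with a median log2 fold change of -1.22. The thyroid and parathyroid list was near background, with a sum of 132.7 to 209.4 over its 7 genes. Among its genes Pth did not exceed background on any array, and Tg, Nkx2-1, Pax8 and Slc5a5 were at most at 39.3, 29.2, 28.3 and 40.2.

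Smooth muscle genes were lowest in sum on the arrays with the highest neuronal signal, at 31742 on wild-type mother 1 and 33263 on ApoE-null mother 3, with 35400 to 40967 on the others. Among them Des ranged over 113.6 to 244.2, Actg2 over 1747 to 3010, Smtn over 1028 to 1754 and Myocd over 991.1 to 1643. The skeletal muscle excess of wild-type mother 2 was in Acta1 (348.3), Tnnc2 (525.8), Myh4 (346.7) and Myh1 (215.0), which were at most at 69.4, 23.4, 11.2 and 132.0 elsewhere. Adipocyte genes were lowest in sum on wild-type mother 3 (9104, against 18549 to 26228), with Ucp1 at 420.1 against 1447.5 to 5059.5. Ucp1, the uncoupling protein of brown fat, did not overlap between the crosses (420.1 to 2297.1 with a wild-type mother, 3146.6 to 5059.5 with an ApoE-null mother), with a log2 fold change of 1.88 and an adjusted p of 0.429 in limma. On wild-type mother 3, Elovl3 was at 61.8 against 96.0 to 522.9 and Cidea at 703.8 against 2321.5 to 4295.8, while Lep was at 12 to 81 over the 7 arrays. Thymocyte genes were low in the wild-type mother group (62.0 to 175.8 in sum) and higher in the ApoE-null mother group (447.7 to 755.6). Rag1, Ccr9, Dntt and Cd8b1 did not overlap between crosses, and the highest sum of the first group was again on wild-type mother 1. The endothelial sum was 3710 to 5387, with Kdr, Pecam1, Tie1 and Tek at most at 327.6, 238.7, 109.0 and 1171. The macrophage sum was 6333 to 8854, with Cd68, C1qa, C1qb and Mrc1 at most at 220.4, 1369, 853.0 and 766.6. The part of these other tissues in the spread of the neuronal genes was not tested.

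**Figure D5:**
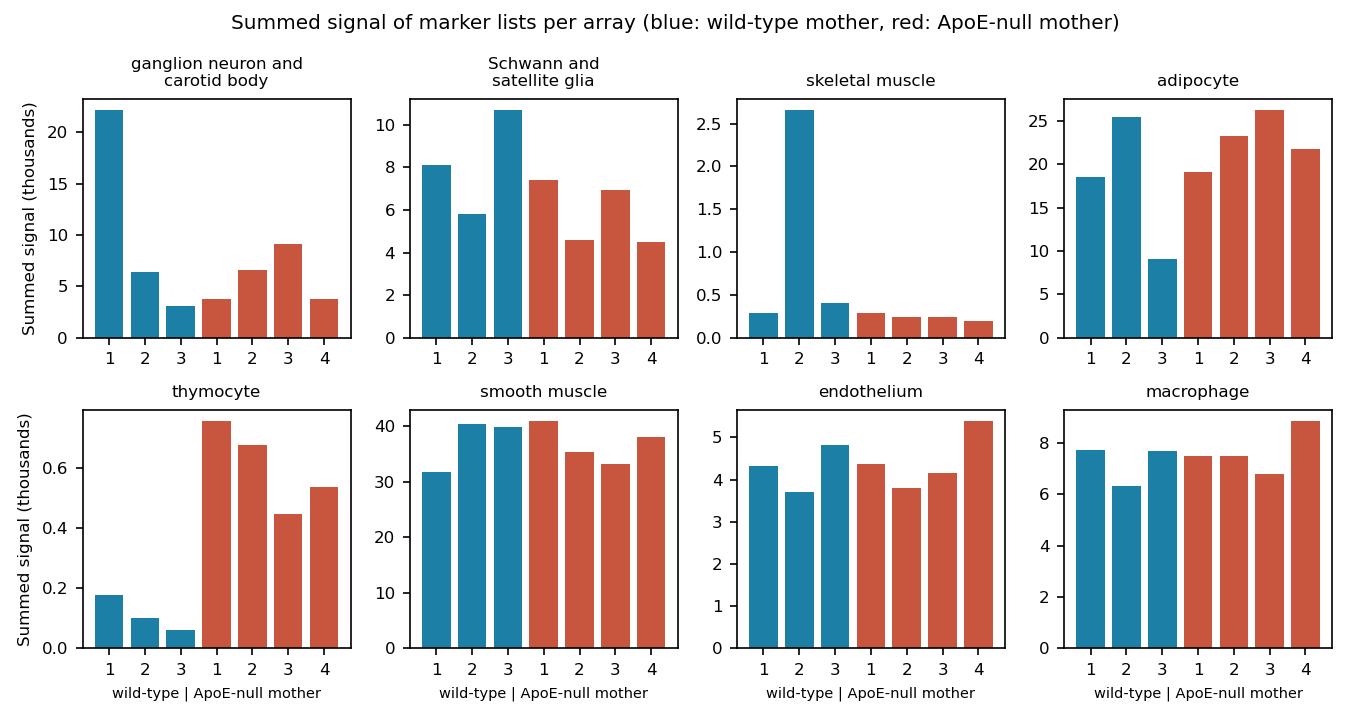
Bars give the summed signal, on an axis from 0, of 8 gene lists on each array, with wild-type mother 1 to 3 in blue and ApoE-null mother 1 to 4 in red. The neuronal sum peaks on wild-type mother 1 (22144), the glial sum on wild-type mother 3 (10692) and the skeletal muscle sum on wild-type mother 2 (2657).

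Other probe sets of the same genes bear on whether the pattern is one of single probe sets. The 36 genes had 35 further probe sets, of which 16, for 12 genes, were past the filter, and 13 of these 16 were highest on wild-type mother 1. That array was highest for 13.7% of all 12713 genes past the filter. The filter used the mean over all 7 arrays, so it favoured that array for probe sets weak on the others. Those of Elavl4 (150.2 and 95.2 on wild-type mother 1), Chrna3 (99.8) and Slc6a2 (37.0) are such cases among the 13. The second probe set of Nefl was at 301.3 on that array, and those of Stmn3 and Dbh were at 469.1 and 231.3. The 13 include a further probe set of Rgs4 (430.6), although the one used for Rgs4 was highest on ApoE-null mother 4. The 3 that differed were 1 further probe set each of Slc6a2 and Cplx1, both highest on ApoE-null mother 2 (50.4 and 136.9), and 1 of Prph, highest on ApoE-null mother 1 (49.2).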

How the data were processed

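Each of 7 carotid samples was read on 1 mouse expression array. The table deposited by the authors holds a linear intensity for each probe set. MAS5 and GCOS are the tools that the submitters' processing notes name, without versions. The authors' scaling, a 2% trimmed mean of 200 on every array, was kept. Values were analysed as log2(signal + 2), where 2 is the rounded 10th percentile of the table. Differences on that scale understate changes of weak genes. The 64 control probe sets were left out and probe sets with a mean above the 40th percentile (23.6) were kept, 27027 in all. These were fitted together by lmFit, and eBayes took an intensity trend (limma 3.58.1, R 4.3.3) so that negative values are lower with an ApoE-null mother, without covariates, with Benjamini-Hochberg adjustment and a threshold of 0.05. Nefm and Vgf, under the filter, were read from a fit of all probe sets. The fit was tested on simulated data in which each gene varied independently, unlike the listed genes, which share high arrays. There it called 32.2% of 2-fold, 81.8% of 4-fold and 89.7% of 8-fold changes. Since nothing in the labels says the samples came from separate animals, p-values measure the spread between these samples.

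Symbols came from the platform annotation, in which 34958 of 45101 probe sets had 1 symbol, 932 several and 9211 none. The listed genes and the other gene lists were chosen with earlier results of these data known, and no test was run over a list. All listed genes are accounted for. From each other list, up to 4 genes with the widest log2 range above background on at least 1 array are named, and Myh11, Acta2, Xist and genes at background were added as checks. Promoters are from RefSeq on GRCm38.p6. Alternatives were other pseudocounts (16 and 32), no filter and a filter at the 60th percentile, quantile normalization, no intensity trend, the mean over all probe sets of a gene, and leaving out each array in turn.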

Additional observations from a re-analysis of the deposited data

Results flagged for a closer look

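Among the 4 ApoE-null mother arrays, Vgf on ApoE-null mother 3 had a signal of 4.9, far from the 2.2 to 2.4 of the other 3 arrays for their narrow range. All of these values lie below background. It was 1 of 36 genes checked for an outlying array, and chance alone marks about 1 in 20 groups.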

How the results depend on the processing

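No paired analysis was possible because the labels give no replicate number that both crosses share. No listed gene was called under the other pseudocounts, filters, normalization, variance model or averaging of probe sets, and the count of negative genes and the median kept their direction there. Signs turned for Elavl3 with a pseudocount of 16 (-0.045) or 32 (-0.088), and for Snap25 with the mean over all probe sets (0.053). Of the other 221 values of single genes under these settings, all kept sign and call. Leaving out each array in turn gave 0 to 1 calls (Chga at -2.70 without wild-type mother 3, adjusted p = 0.0309 in limma), 7 to 33 negative genes, 1 to 6 genes without overlap, and a median log2 fold change of -1.23 to 0.30, positive without wild-type mother 1 only. In these fits the log2 fold change ranged from -1.65 to 0.64 for Th, -2.47 to 0.31 for Ddc, -1.55 to 1.03 for Dbh, -0.54 to 0.50 for Gch1, -0.36 to 1.78 for Slc18a2 and -1.45 to 0.70 for Slc6a2. It ranged from -2.53 to 0.26 for Chgb, -1.80 to 0.064 for Scg2, -1.70 to 0.23 for Scg5, -1.82 to 0.16 for Npy, -0.91 to 0.14 for Phox2a, -0.52 to 0.35 for Hand1 and -0.53 to 0.35 for Elavl3. Ranges were -1.80 to 1.14 for Snap25, -1.61 to 0.24 for Syt1, -0.70 to 0.52 for Stmn2, -1.15 to 0.58 for Stmn3, -2.02 to 0.049 for Tubb3, -1.49 to 0.72 for Prph and -1.40 to 1.32 for Nefl. They were -0.54 to 0.84 for Nefm, -1.09 to 0.30 for Nefh, -1.17 to 0.53 for Ret and -0.058 to 0.68 for Kcnk3. Background of 10 to 22 limits fold changes of Slc18a2, Scg5, Hand1, Elavl3, Elavl4, Snap25, Tubb3, Nefl, Nefm, Chrna3 and Vgf, which did not exceed it on 2 or more arrays, and of Dbh, which did not on 1.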

Other observations

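Genes outside all lists whose pattern was most like that of the listed genes were ranked by Pearson correlation with the list score over the 7 arrays, among 626 genes with a log2 range of at least 2. The arrays share 1 very high sample, so the values describe likeness only. The first 15 were Rit2, Fstl5, Htr3a, Add2, Gdap1, Snap91, Bex2, Lrp11, Prkar1b, Slc6a15, Bex1, Plppr4, Rtn1, Cntn1 and St8sia1, with correlations of 0.961 to 0.995, and of 0.902 to 0.990 over the 6 arrays without wild-type mother 1. Rit2, a small GTPase of neurons, had signals of 242.2, 36.7 and 7.4 in the wild-type mother group, and 9.8, 41.7, 68.4 and 9.4 in the ApoE-null mother group. Htr3a, the ion channel receptor for serotonin, was at 566.5, 85.3 and 32.1, against 66.1, 124.5, 222.7 and 35.3. Snap91, a clathrin adaptor of synaptic vesicles, was at 476.7, 55.8 and 14.3, against 35.1, 83.8, 221.5 and 31.3. Add2, a subunit of adducin in the membrane skeleton, was at 200, 18.2 and 3.6, against 7.7, 46.8, 75.2 and 4.1. In these genes ApoE-null mother 3 was the second highest array, an order that ranking by likeness to the list score favours.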
